A study of Rattus norvegicus with 7 samples.

Results

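This account follows 10 genes of the pericellular matrix in rMSCs, mesenchymal stem cells from rat bone marrow, at 4 h after seeding on ISB-P, PCL or TCP. They are the hyaluronan synthases Has1 and Has2, the hyaluronan receptor Layn, the hyaluronan-binding proteoglycan Vcan, and the small leucine-rich proteoglycans (SLRPs) Lum, Dcn, Bgn, Fmod, Ogn and Prelp, out of 17147 gene symbols with a value. The genes were taken by symbol and grouped by function, but Layn was selected on its lower level on ISB-P in these same libraries, so its difference between the films is given as a description, with no test. ISB-P is the polyurethane copolymer of polycaprolactone with propoxylated isosorbide, PCL is the polycaprolactone film and TCP is uncoated tissue culture plastic. The films were 16 mm wide and gas-sterilized, and 20000 cells were seeded per specimen in serum-containing medium. No gene was altered and no drug was given in any group. Each film has 3 libraries and TCP has 1. Per the study's methods the primary cells came from the marrow of a young male rat of the Sprague-Dawley stock, 6 weeks of age, and nothing states that the replicates were separate animals. The p-values therefore measure only the spread between these libraries, which may be technical.

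Hyaluronan is a long unbranched sugar polymer that Has enzymes extrude through the plasma membrane, and cells hold it as a coat by receptors such as Cd44 and layilin (Layn), a lectin-type membrane protein. Versican (Vcan) binds hyaluronan with one end of its core protein and carries chondroitin sulfate chains, which makes the coat hydrated and loose. SLRPs are short secreted core proteins built of leucine-rich repeats. Decorin (Dcn), biglycan (Bgn), lumican (Lum) and fibromodulin (Fmod) bind collagen and shape its fibrils, and decorin and biglycan also bind growth factors of the TGF-beta family. Connective tissue cells, including cultured marrow stromal cells, are a main source of these proteins.

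Values are read as FPKM, which divides fragments by transcript length and by library size, so that levels of different genes can be set side by side. They summed to between 539393 and 660124 in a library. Read depth is unknown, and the precision rests on the 3 libraries of each film. Of the 7 markers of mesenchymal cells checked (Thy1, Nt5e, Eng, Cd44, Itgb1, Pdgfrb and Prrx1), all 7 were at 1 FPKM or more in every library. The endothelial list of 4 genes summed to 0.565 FPKM at most. ISB-P and PCL were compared with limma on log2(FPKM + 1) over 9467 genes, those that reached 1 FPKM in 3 or more of the 6 libraries from the films. At an adjusted p under 0.05, ISB-P was the higher film for 104 of these genes and the lower for 59, or 70 and 70 with every library scaled to a common total. Of the 10 genes, 8 passed the filter. Has1 was too low to pass and Ogn was listed at 0 FPKM in all 7 libraries.

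Layn measured 15.9, 13.9 and 16.8 FPKM in the PCL replicates in order, against 7.42, 7.69 and 7.59 FPKM in the same replicates of ISB-P. On TCP it was 5.63 FPKM, below all 6 film libraries. Every ISB-P library lay below every PCL library. The means were 15.5 ± 1.49 FPKM (SD, n = 3) on PCL and 7.57 ± 0.137 (SD, n = 3) on ISB-P, a ratio of 2.05. On the log2(FPKM + 1) scale, which understates folds of low genes, the fold change was -0.94 with a standard error of 0.12, and it ranged from -1.05 to -0.89 over 14 alternative settings. The ratio of ISB-P to PCL within replicates 1, 2 and 3 was 0.466, 0.554 and 0.453. Among all tested genes, 9.54% had the films apart with ISB-P lower, and nothing is read from Layn being one of them. In bulk RNA, less Layn RNA per cell and fewer cells that carry it cannot be told apart.

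The ISB-P values of Layn were also close to each other. Layn was selected on its level in these same libraries, so its spread is a description and nothing is read from it. The highest ISB-P library was 1.03-fold above the lowest on FPKM + 1, where the median tested gene spread 1.37-fold, and 1.01% of tested genes had a smaller spread. On PCL the spread was 1.19-fold, against 1.28-fold for the median gene. Has2, Lum and Dcn were at the other end. Their spreads were 2.03-, 1.90- and 1.83-fold on PCL and 2.55-, 2.34- and 2.23-fold on ISB-P, and 93.3% to 96.9% of tested genes spread less.

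**Figure D1:**
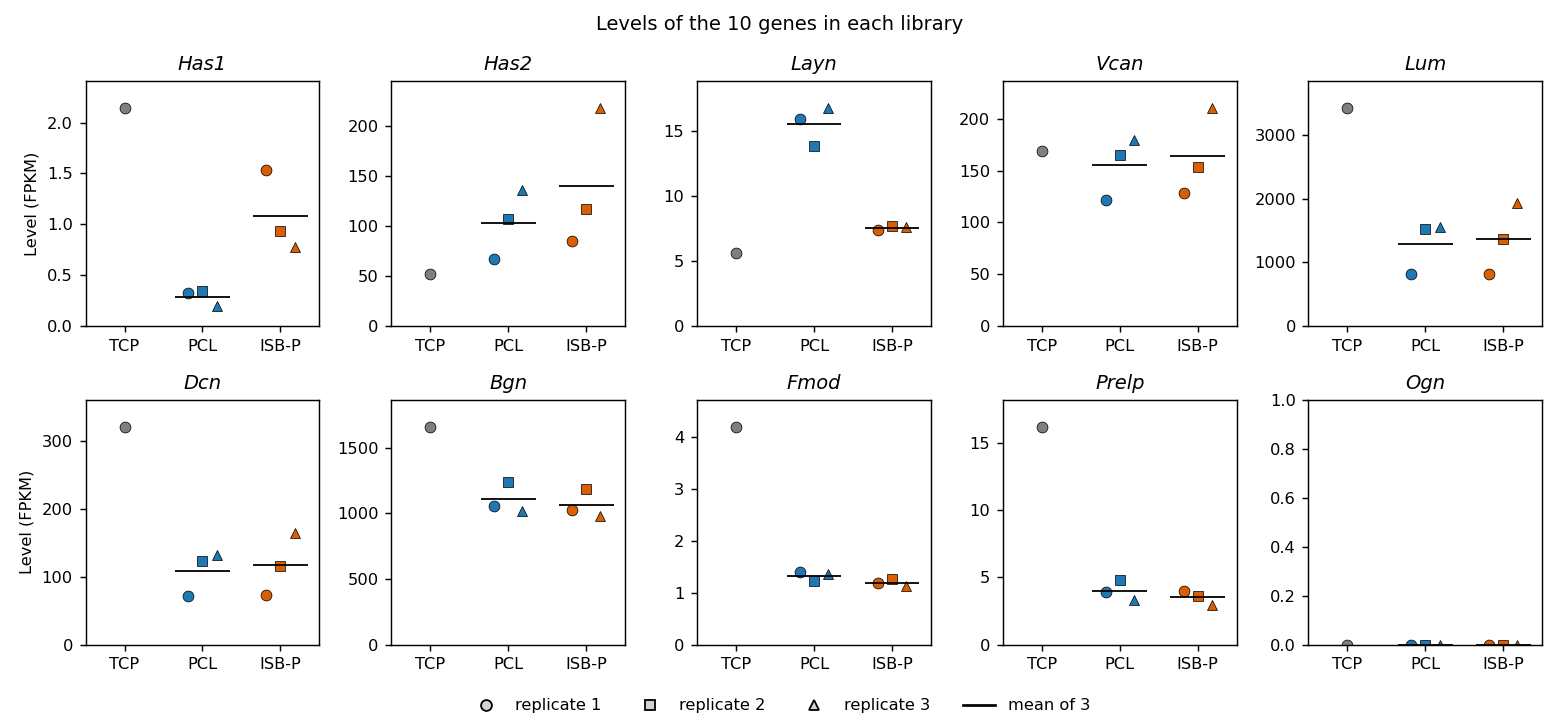
Level in FPKM (linear axis from 0, a scale of its own for each gene) of the 10 genes in the TCP library (grey), the 3 PCL libraries (blue) and the 3 ISB-P libraries (orange), with symbols for the replicate number and a line at the mean of 3. The ISB-P libraries of Layn lie at 7.42 to 7.69 FPKM, below the PCL libraries at 13.9 to 16.8, while the films overlap for Has2, Vcan, Lum, Dcn, Bgn, Fmod and Prelp.

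The RefSeq promoter of Layn is shown because this gene separated the films. The RefSeq promoter table (GRCr8 build, not the rn5 build named in the submitters' processing notes) holds 6 of the 10 genes, each as 250 bases before and 50 after a start site. The Layn window lies on the minus strand at chr8:60280568-60280867. Read 5′ to 3′ along the gene, with GC boxes (GGGCGG on either strand) in capitals, it is as follows.
Layn: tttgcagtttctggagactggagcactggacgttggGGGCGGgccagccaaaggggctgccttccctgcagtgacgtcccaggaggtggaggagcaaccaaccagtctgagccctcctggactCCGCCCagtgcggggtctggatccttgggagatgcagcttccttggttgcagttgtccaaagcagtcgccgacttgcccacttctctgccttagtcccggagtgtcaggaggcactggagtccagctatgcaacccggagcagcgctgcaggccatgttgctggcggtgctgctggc
The window is 62.7% G or C, against a median of 51.7% over all promoters, and holds the GC box at -214 and, on the other strand, at -127, counted from the start site. GC boxes, the letters bound by Sp-family factors, were in 33.1% of the 33469 promoters of this length. The core letters of the heat shock element (GAANNTTC, in 8.59% of promoters), of the xenobiotic response element bound by the aryl hydrocarbon receptor (GCGTG, 29.7%), of the AP-1 site (TGANTCA, 7.33%) and of the cAMP response element (TGACGTCA, 1.83%) were not in it. The motifs were searched on both strands and were chosen after the values were seen. A match of letters is a description, and its absence from this window says nothing about a factor.

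Of the hyaluronan synthases, which build the polymer from UDP sugars, Has2 was the abundant one and Has1 was near the bottom of the scale. Has1 was 0.321, 0.342 and 0.200 FPKM on PCL, 1.54, 0.937 and 0.776 on ISB-P and 2.14 on TCP. Each ISB-P library lay above each PCL library. Of the 9467 tested genes, which leave out Has1 and other genes as low, 8.17% had the films apart in this direction. TCP lay above both films. The means were 0.287 ± 0.0764 FPKM (SD, n = 3) on PCL and 1.08 ± 0.401 (SD, n = 3) on ISB-P. Has1 was under the filter, so it has no test among the 9467 genes. In a fit of all 13460 genes above 0 in a film library, its log2 fold change was 0.68 with a standard error of 0.14 and an adjusted p of 0.0856 in limma. ISB-P was above PCL within all 3 replicate numbers, by ratios of 4.79, 2.74 and 3.88.

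Has2 was 66.6, 107 and 136 FPKM on PCL, 84.8, 117 and 218 on ISB-P and 52.5 on TCP. The films overlapped, TCP lay below all 6 film libraries, and on each film replicate 1 was the lowest and replicate 3 the highest. The means were 103 ± 35.1 FPKM (SD, n = 3) on PCL and 140 ± 69.3 (SD, n = 3) on ISB-P. Has2 did not pass in limma without a block (log2 fold change 0.38, standard error 0.39, adjusted p = 0.874). Blocking on replicate number, the same difference passed, with a standard error of 0.10 and an adjusted p of 0.0248, and the ratios within replicates were 1.27, 1.09 and 1.6. Over 14 alternative settings the log2 fold change ranged from 0.01 to 0.68. It was lowest without ISB-P replicate 3, and 0.10 without PCL replicate 1, both without the block. Libraries of the same number deviated together across genes, at r = 0.887, 0.431 and 0.867 for numbers 1, 2 and 3, where genes are not independent replicates. No label states that libraries of the same number were handled together, and the headings inside the deposited data number PCL differently. All results with the block rest on this assumed pairing. Has2 stood 208-, 313- and 682-fold above Has1 in the PCL libraries, 55.2-, 125- and 281-fold on ISB-P and 24.5-fold on TCP. The ratio of the synthases was therefore lower on ISB-P than on PCL within every replicate number, and lowest on TCP. Its ranges on the 2 films overlapped. On PCL it divides by Has1 values of 0.200 to 0.342 FPKM, under the filter, so its size there is uncertain.

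The Has1 window, shown because Has1 separated the films in the direction opposite to Layn, lies on the minus strand at chr1:67378395-67378694 (GRCr8). The capitals mark the full cAMP response element TGACGTCA, which begins at -83 from the start site.
Has1: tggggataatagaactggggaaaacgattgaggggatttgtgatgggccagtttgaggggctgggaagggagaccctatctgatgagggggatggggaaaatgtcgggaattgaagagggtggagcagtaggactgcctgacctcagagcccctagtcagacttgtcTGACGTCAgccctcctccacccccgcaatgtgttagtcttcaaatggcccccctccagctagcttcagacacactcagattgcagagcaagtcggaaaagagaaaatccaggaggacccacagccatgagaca
None of the other motifs named above was in this window. Has2, Dcn, Bgn and Prelp were not in the table.

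Vcan, the large chondroitin sulfate proteoglycan of the hyaluronan coat, was 122, 165 and 179 FPKM on PCL, 128, 154 and 210 on ISB-P and 169 on TCP. The groups overlapped and TCP lay inside the range of the films. Its log2 fold change was 0.07 with a standard error of 0.23, an adjusted p of 0.963 in limma and of 0.556 with the block. The within-replicate ratios of 1.05, 0.931 and 1.17 lay on both sides of 1.

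Lum and Bgn were the most abundant of the 10 genes on every surface. Lum, a keratan sulfate SLRP, was 816, 1524 and 1550 FPKM on PCL, 823, 1370 and 1927 on ISB-P and 3423 on TCP. The films overlapped, replicate 1 was the lowest library of both, and TCP stood above all 6 film libraries. The log2 fold change between the films was 0.06 with a standard error of 0.37 (adjusted p = 0.976 in limma, 0.658 with the block). Dcn, whose core protein carries a single chondroitin or dermatan sulfate chain, was 71.7, 123 and 132 FPKM on PCL, 72.7, 116 and 164 on ISB-P and 321 on TCP. It had the same low replicate 1 on both films and the same high TCP value as Lum. Its log2 fold change was 0.08 with a standard error of 0.35 (adjusted p = 0.966 in limma, 0.508 with the block).

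Bgn, the closest relative of decorin, was 1056, 1241 and 1017 FPKM on PCL, 1024, 1182 and 982 on ISB-P and 1658 on TCP. The films overlapped, and the ISB-P library was slightly lower than the PCL library of the same number in all 3 pairs, with ratios of 0.970, 0.952 and 0.965. Neither fit called it (log2 fold change -0.06, standard error 0.13, adjusted p = 0.947 in limma, 0.515 with the block). Its spread was 1.22-fold on PCL and 1.20-fold on ISB-P, against 1.90-fold and 2.34-fold for Lum.

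Prelp, which binds collagen and heparan sulfate, and Fmod, a relative of lumican, were low. Prelp was 3.94, 4.81 and 3.29 FPKM on PCL, 3.96, 3.61 and 2.97 on ISB-P and 16.2 on TCP. Fmod was 1.40, 1.23 and 1.36 FPKM on PCL, 1.19, 1.27 and 1.12 on ISB-P and 4.21 on TCP. For both genes the films overlapped and TCP was the highest library. Their log2 fold changes between the films were -0.15 (standard error 0.15, adjusted p = 0.878 in limma) and -0.09 (standard error 0.09, adjusted p = 0.880). Ogn, osteoglycin, was listed at 0 FPKM in all 7 libraries, as were Omd and Aspn, the next SLRP genes beside it on chromosome 17 of GRCr8, and whether a listed 0 is a measured absence is not known.

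Among the 7 genes tested, without Layn, 0 had an adjusted p under 0.05 in limma and 0 an unadjusted p under 0.05. Their median log2 fold change was 0.06, against 0.02 over all 9467 genes. Over all tested genes 1.10% were called higher and 0.623% lower on ISB-P. With the replicate block 1 of the 7 was called, Has2, where 13.0% of all genes were called higher and 11.4% lower. None of the 7 had films that did not overlap. Of all tested genes, 8.17% had the films apart with ISB-P higher and 9.54% with ISB-P lower. The standard errors of Has2, Lum and Dcn were 0.35 to 0.39 without the block. Differences larger than 1 standard error, in either direction, are therefore not excluded for these genes.

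**Figure D2:**
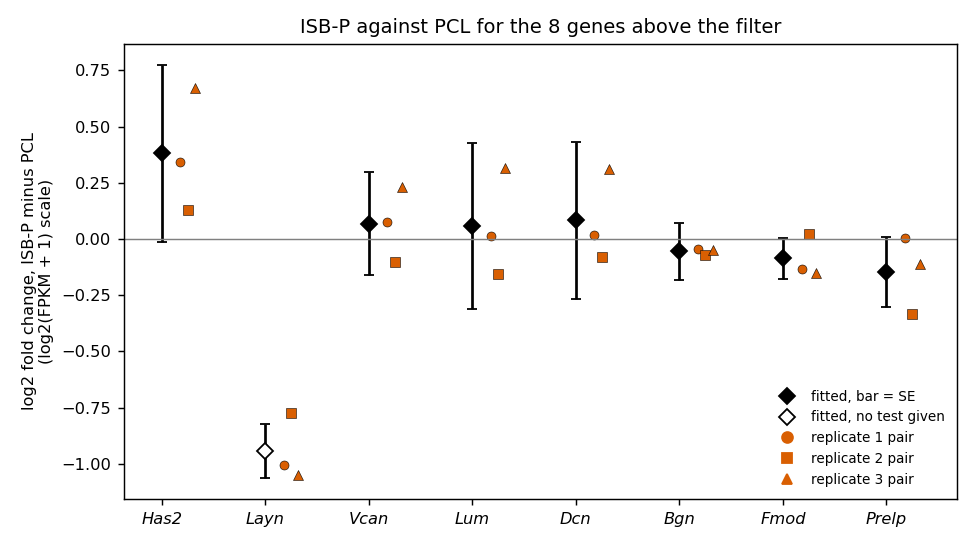
log2 fold change of ISB-P over PCL on the log2(FPKM + 1) scale for the 8 genes above the filter, as diamonds with a bar of 1 standard error from limma, beside the same ratio within each replicate number (orange symbols). Layn lies at -0.94, drawn open because it has no test, and the other fitted values lie between -0.15 and 0.38.

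On PCL the order of levels was Lum, Bgn, Vcan, Dcn, Has2, Layn, Prelp, Fmod, Has1 and Ogn. The ranges of Lum and Bgn overlapped, as did those of Vcan and Dcn and of Dcn and Has2, and no other neighbours in this order did. On ISB-P the means of Has2 and Dcn changed places, at 140 ± 69.3 and 118 ± 45.5 FPKM (SD, n = 3), with ranges that overlapped. The range of Has1 on ISB-P, 0.776 to 1.54 FPKM, overlapped that of Fmod above it, at 1.12 to 1.27.

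Lum and Dcn kept a nearly fixed ratio to each other. Lum was 11.4-, 12.4- and 11.8-fold above Dcn in PCL replicates 1, 2 and 3, 11.3-, 11.8- and 11.8-fold on ISB-P and 10.7-fold on TCP. The ratio moved little while Lum itself ranged from 816 to 3423 FPKM. On log2(FPKM + 1) the pair correlated at r = 0.996 over the 7 libraries and at 0.998 over the 6 film libraries, which share the replicate pattern given above. The genes lie next to each other on chromosome 7 of GRCr8, with 0 protein-coding genes between them. Fmod and Prelp are neighbours as well, on chromosome 13, and correlated at 0.968 over the 7 libraries but at 0.184 over the films, so that their likeness rested on the TCP library. Has2 went with Vcan (r = 0.967), Dcn (0.932) and Lum (0.910) over the films, but at 0.662, -0.06 and 0.01 once TCP was included.

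The ratio of Lum to Bgn was not fixed. Lum was 0.773-, 1.23- and 1.52-fold the level of Bgn in the PCL libraries, 0.804-, 1.16- and 1.96-fold on ISB-P and 2.06-fold on TCP. Bgn led in replicate 1 of both films and Lum in every other library. As shares of the summed FPKM of the 6 SLRP genes, Bgn held 54.2%, 42.9% and 37.6% on PCL, 53.2%, 44.2% and 31.9% on ISB-P and 30.6% on TCP. The sum itself was 1949 to 2894 FPKM on PCL, 1925 to 3077 on ISB-P and 5423 on TCP, where it made up 1.01% of all FPKM.

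**Figure D3:**
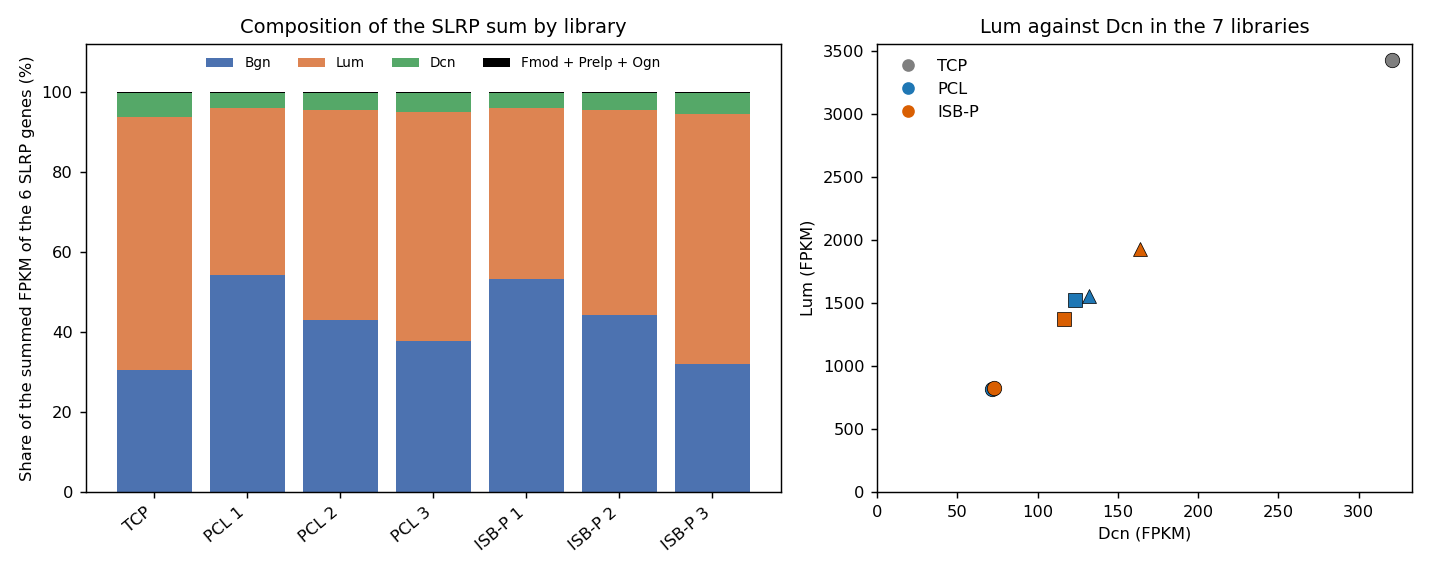
Left, the share of each gene in the summed FPKM of the 6 SLRP genes, in percent, for each library; right, Lum against Dcn in FPKM on linear axes from 0, with colours for the surface and symbols for the replicate number. Bgn holds from 30.6% (TCP) to 54.2% (PCL replicate 1), and the points of Lum and Dcn lie close to a single line with TCP farthest out.

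The Lum window, shown for the most abundant SLRP on TCP, lies on the plus strand at chr7:34245456-34245755 (GRCr8). The capitals mark GCGTG, which begins at -193 and -135 from the start site.
Lum: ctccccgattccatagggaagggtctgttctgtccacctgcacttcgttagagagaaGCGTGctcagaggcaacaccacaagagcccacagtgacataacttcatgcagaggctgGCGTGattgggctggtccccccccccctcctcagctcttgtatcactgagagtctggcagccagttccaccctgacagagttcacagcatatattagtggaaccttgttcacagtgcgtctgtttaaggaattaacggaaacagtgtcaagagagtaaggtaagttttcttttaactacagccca
The other motifs named above were not in this window.

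Set against the TCP library, the genes fell into unlike groups. The single TCP library allows no replicate check, PCL and ISB-P share it, and its preparation and the surface cannot be told apart, so these ratios are descriptions. Ratios are of the film mean plus 1 over the TCP value plus 1. Of the 8 genes above the filter, 5 had TCP above all 6 film libraries (Lum, Dcn, Bgn, Fmod and Prelp), as did 25.4% of all tested genes. Has2 and Layn had TCP below all 6, as did 29.7%. Over 2-fold lower on PCL than on TCP were 4 genes, against 3.04% of all genes, and the same 4 (Lum, Dcn, Fmod and Prelp) were over 2-fold lower on ISB-P, against 4.28%. TCP was 2.64-, 2.93-, 2.23- and 3.44-fold above the PCL mean for Lum, Dcn, Fmod and Prelp, and 2.49-, 2.72-, 2.37- and 3.82-fold above the ISB-P mean. All 6 film libraries were over 2-fold below TCP for Fmod and Prelp, and 5 of 6 for Lum and Dcn, with ISB-P replicate 3 the exception. Bgn was 1.5-fold and 1.56-fold higher on TCP than on PCL and ISB-P.

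In the other direction, Layn was 2.49-fold higher on PCL than on TCP and 1.29-fold higher on ISB-P, so its ISB-P level lay nearer to TCP. Has2 was 1.95-fold and 2.63-fold higher on PCL and ISB-P. Over all tested genes 5.56% were over 2-fold higher on PCL than on TCP and 8.98% on ISB-P. Has2 was 1 of these on ISB-P, and nothing is read from Layn being over 2-fold on PCL, since its level on PCL against ISB-P chose it. The median log2 ratio to TCP of the 8 genes, Layn among them, was -0.87 on PCL and -0.94 on ISB-P. Over all tested genes it was 0.07 and 0.08. These medians are a description only.

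Of the marker lists of other cell types, those for macrophages and adipocytes were higher on TCP in every gene. The 6 blood and macrophage markers in the table (Ptprc, Cd68, Csf1r, Itgam, Lyz2 and Cd14) summed to 130 FPKM on TCP, 39.2 to 46.6 on PCL and 39.4 to 45.3 on ISB-P, and all 6 were highest on TCP. The 4 adipocyte markers (Adipoq, Plin1, Fabp4 and Lpl) summed to 111, 29.1 to 46.0 and 33.2 to 57.8 FPKM, and all 4 were highest on TCP. Among the defining markers, Ptprc was 1.48 FPKM on TCP and 0.433 to 1.23 on the films, and Adipoq was 1.58 on TCP and at most 0.332 on the films. The 4 osteoblast markers (Sp7, Ibsp, Dmp1 and Bglap) summed to 16.6 FPKM on TCP, 6.71 to 9.39 on PCL and 4.61 to 7.93 on ISB-P. Sp7 made up most of this, at 15.6 FPKM on TCP, while Dmp1 was 0.131 FPKM on TCP, below all 6 film libraries, and Bglap was listed at 0. The 3 chondrocyte markers (Acan, Col2a1 and Matn3) summed to 76.9, 65.0 to 77.9 and 51.1 to 66.0, nearly all of it Acan, and the TCP value lay inside the PCL range. The endothelial sum on TCP, 0.390 FPKM, lay inside the ISB-P range. Mesenchymal markers summed to 2565 FPKM on TCP, inside the range of the films. The part of other cells in the SLRP values was not tested.

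**Figure D4:**
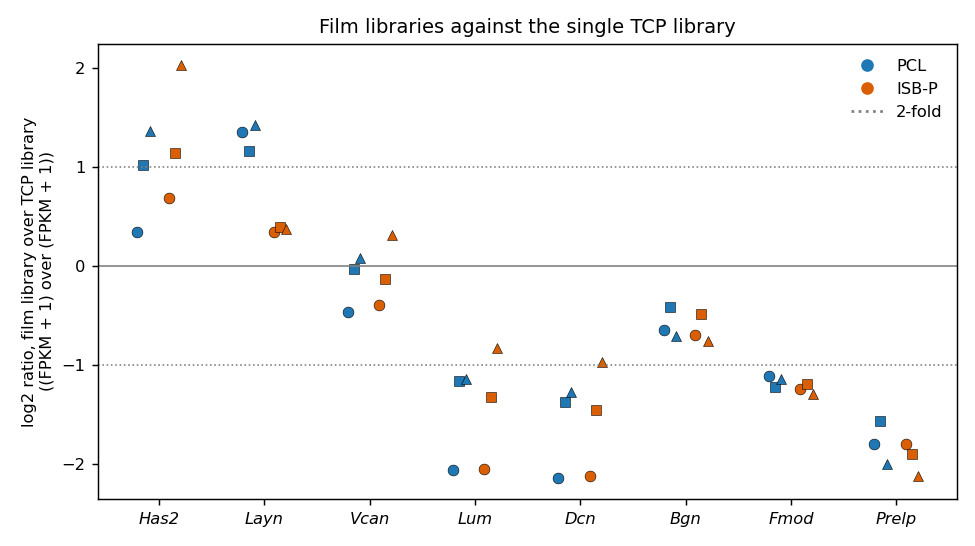
log2 ratio of each film library to the TCP library, on FPKM + 1, for the 8 genes above the filter, with PCL in blue, ISB-P in orange, symbols for the replicate number and dotted lines at 2-fold. Lum, Dcn, Bgn, Fmod and Prelp lie below 0 in all 6 film libraries, and Has2 and Layn lie above 0 in all 6.

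The other genes of the pathway were taken as 6 lists by role, chosen with earlier results of these data known. Their p-values and counts are therefore descriptions. Of the listed genes, 57 passed the filter. In limma 2 of them rose on ISB-P and 1 fell at an adjusted p under 0.05, and 54 did not pass. Their median log2 fold change was -0.03, against 0.02 over all tested genes, and 11 had an unadjusted p under 0.05, as had 12.1% of all tested genes. With the replicate block 11 were higher and 10 lower, which is 21 of 57. Over all tested genes the block called 13.0% higher and 11.4% lower. The block counts per list below stand against these same shares.

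Of 14 genes that make or degrade hyaluronan and its sugar precursors, 1 rose, 1 fell and 12 did not pass in limma, and 4 were higher and 2 lower with the block. Gfpt2, which makes the first committed step of the hexosamine pathway toward UDP-N-acetylglucosamine, was 8.15, 8.19 and 9.40 FPKM on PCL, 22.6, 24.4 and 27.0 on ISB-P and 12.3 on TCP. Every ISB-P library was above every other library. It rose by a log2 fold change of 1.42 with a standard error of 0.13 (adjusted p = 0.00471 in limma), and its means were 8.58 ± 0.712 FPKM (SD, n = 3) on PCL and 24.7 ± 2.23 (SD, n = 3) on ISB-P. Without PCL replicate 2 or without ISB-P replicate 2 its adjusted p was 0.0663 and 0.0588. Hyal2, a hyaluronidase anchored at the cell surface, was 18.6, 18.8 and 14.9 FPKM on PCL, 9.05, 10.2 and 7.64 on ISB-P and 19.4 on TCP. Every ISB-P library was below every other library. It fell by 0.89 on the log2 scale with a standard error of 0.16 and an adjusted p of 0.04995 in limma, just inside the threshold, and 1.55e-04 with the block. All 13 other alternatives took it over the threshold, with adjusted p up to 0.260, while the log2 fold change stayed between -0.99 and -0.79. Ugdh and Uap1, which make UDP-glucuronic acid and UDP-N-acetylglucosamine, were the most abundant of the list. Ugdh was 190 ± 36.4 FPKM on PCL and 218 ± 62.9 on ISB-P (SD, n = 3; adjusted p = 0.911 in limma). Uap1 was 175 ± 21.3 and 229 ± 46.5 FPKM (SD, n = 3), with an adjusted p of 0.509 in limma and 0.00643 with the block.

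Of 7 hyaluronan-binding genes, 0 passed in limma, and 1 had an unadjusted p under 0.05. With the block 1 was higher and 1 lower. Cd44, the main hyaluronan receptor of these cells, was 275, 346 and 363 FPKM on PCL, 315, 365 and 482 on ISB-P and 343 on TCP, with groups that overlapped (log2 fold change 0.23, standard error 0.19, adjusted p = 0.829 in limma, 0.0617 with the block). In each library it stood over 10 times above Layn. Acan, the cartilage relative of versican, was 68.0 ± 6.88 FPKM on PCL and 55.3 ± 7.70 on ISB-P (SD, n = 3), with an adjusted p of 0.544 in limma and 0.0151 with the block, lower on ISB-P. Tnfaip6, which links proteins to hyaluronan and was named after its values were seen, was 2.24, 4.30 and 5.82 FPKM on PCL and 5.33, 7.84 and 12.8 on ISB-P. Its films overlapped, and its adjusted p was 0.375 in limma and 3.09e-04 with the block, higher on ISB-P.

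Of 2 other SLRPs above the filter, Tsku and Epyc, 0 passed in either fit, and their log2 fold changes were 0.17 each (adjusted p = 0.868 and 0.915 in limma). Of 11 other proteoglycans 0 passed in limma, with 2 at an unadjusted p under 0.05, and 2 were higher and 3 lower with the block. Sdc1, a transmembrane heparan sulfate proteoglycan, was 338, 351 and 313 FPKM on PCL and 440, 428 and 357 on ISB-P, with films that did not overlap (log2 fold change 0.29, standard error 0.13, adjusted p = 0.456 in limma, 0.0150 with the block). Sdc4 was 298 ± 70.4 and 282 ± 62.1 FPKM (SD, n = 3; adjusted p = 0.961 in limma).

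Of 20 genes that build or sulfate the chains, 0 passed in limma, with 3 at an unadjusted p under 0.05, and 2 were higher and 4 lower with the block. Chsy1, a chondroitin synthase, was 149, 149 and 162 FPKM on PCL and 192, 187 and 206 on ISB-P. Its films did not overlap, but it did not pass in limma (log2 fold change 0.34, standard error 0.11, adjusted p = 0.259), while it did with the block (adjusted p = 0.00571). Chpf was 84.4 ± 18.8 FPKM on PCL and 71.7 ± 25.0 on ISB-P (SD, n = 3; adjusted p = 0.890 in limma).

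Of 3 proteases that cut versican and aggrecan, 1 rose in limma and 2 were higher with the block. Adamts1 was 57, 56.8 and 62.7 FPKM on PCL, 124, 127 and 132 on ISB-P and 23.5 on TCP. The ISB-P libraries lay at more than 2 times the PCL level in every replicate pair, and TCP lay below both films. The log2 fold change was 1.10 with a standard error of 0.12 (adjusted p = 0.00831 in limma). Its adjusted p was 0.0628 without PCL replicate 1, 0.0990 without PCL replicate 2 and 0.10 without ISB-P replicate 2. Adamts5, named after its values were seen, was 1.76, 2.24 and 2.02 FPKM on PCL and 3.56, 2.98 and 2.99 on ISB-P. Its films did not overlap, and its adjusted p was 0.132 in limma and 0.0151 with the block. Adamts4 was 4.85 ± 0.546 FPKM on PCL and 4.49 ± 0.752 on ISB-P (SD, n = 3; adjusted p = 0.920 in limma).

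**Figure D5:**
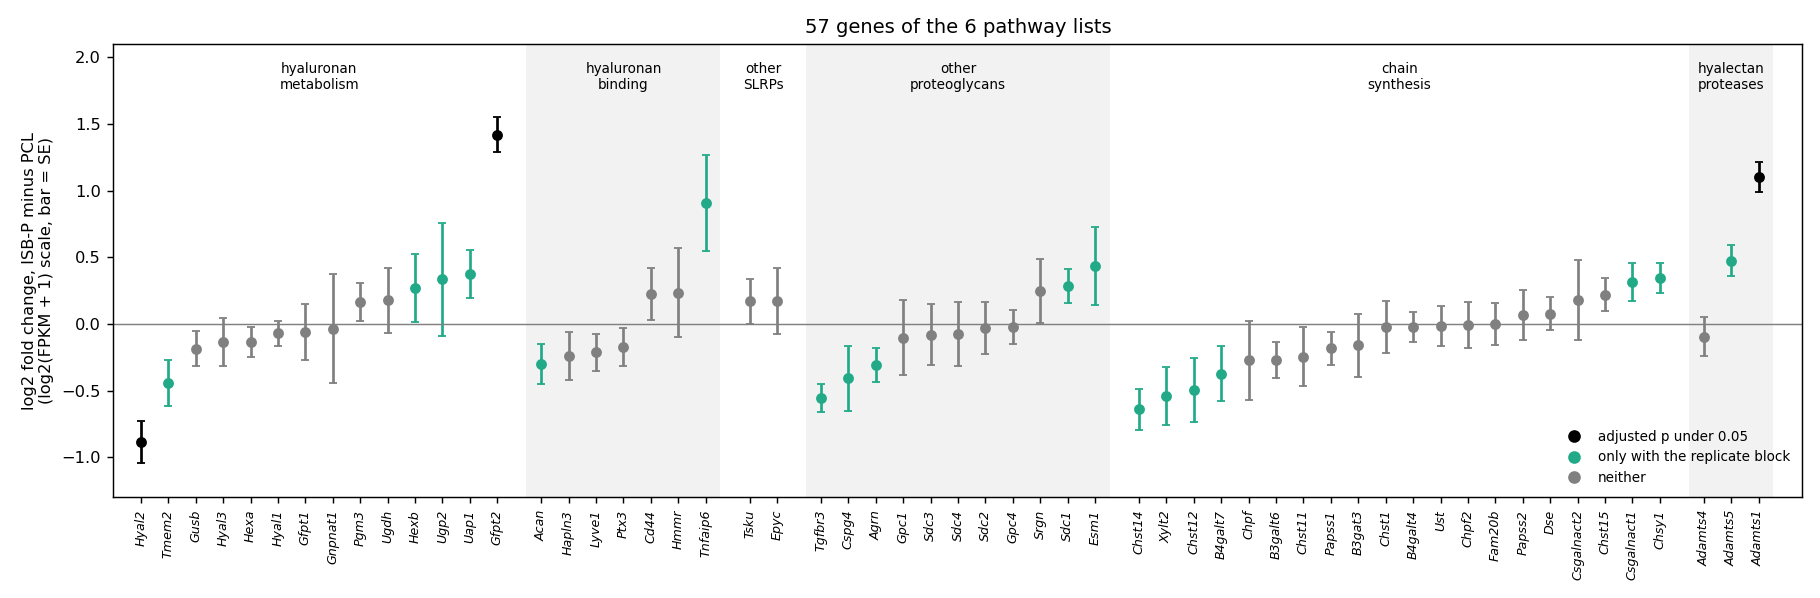
log2 fold change of ISB-P over PCL on the log2(FPKM + 1) scale, with bars of 1 standard error, for the 57 genes of the 6 lists, ordered by value within each list. Black marks genes with an adjusted p under 0.05 in limma (Gfpt2, Adamts1 and Hyal2), green those that passed only with the replicate block and grey the rest.

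The 5 tested genes whose pattern over the 7 libraries was most like that of Layn, by Pearson correlation on log2(FPKM + 1), were Bcs1l (r = 0.981), Pars2 (0.977), Cyp1a1 (0.976), Kazn (0.971) and Xpo5 (0.968). They were picked as the highest of 9467 genes, over libraries that share surfaces and replicate numbers. Layn was selected on its difference between the films, so likeness to it repeats that selection and nothing is read from it. Cyp1a1, a cytochrome P450, was 1.77, 1.97 and 1.86 FPKM on PCL, 0.200, 0.314 and 0.352 on ISB-P and 0.122 on TCP. It passed the filter only through its PCL libraries. The other 4 spanned 0.42 to 0.61 on the log2 scale between their lowest and highest libraries, and Cyp1a1 spanned 1.40. The 7 other genes of the 10 above the filter correlated with Layn at -0.49 (Dcn) to 0.12 (Has2) over the 7 libraries. Over the 6 film libraries their correlations ranged from -0.33 (Has2) to 0.79 (Fmod). The limit given above for likeness to Layn holds for these as well, and Fmod lay at 1.12 to 1.40 FPKM on the films, near the filter.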

How the data were processed

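The authors prepared strand-specific mRNA libraries and read them as paired ends. The submitters' processing notes name bcl2fastq 2.20.0.422, cutadapt 1.18, TopHat2 2.0.13, Cuffdiff 2.2.1 and build rn5; the step each of these did is not given in the sources used here. The authors chose their own genes with ExDEGA, which was not used here. The authors deposited 1 value per gene symbol and library, read here as FPKM because Cuffdiff gives FPKM, the values are not whole numbers and library sums differ. Depth is unknown and no detection floor is given.

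Values were used as deposited. Genes that reached 1 FPKM in 3 or more film libraries were tested with limma 3.58.1 in R 4.3.3 (trend, two-sided, Benjamini-Hochberg over all 9467 genes) on log2(FPKM + 1), with ISB-P and PCL libraries only. TCP, with 1 library, was compared by ratios alone. The model was tested on simulated data. Groups and replicate numbers came from sample titles. No label states that libraries of the same number were handled together. The pairing by title number is an assumption, and the correlations given for it come from these same libraries. The headings inside the tables number PCL differently: the number they share would pair PCL replicate 3 with ISB-P replicate 2, whose deviations correlated at -0.260.

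The genes and lists were chosen with earlier results of these data known. Named were all 10 genes, list genes with an adjusted p under 0.05, the 2 most abundant of each list and the 5 genes most like Layn; others are marked. List symbols without a row in the table were not analysed here. Alternatives were other scalings, a pseudocount of 0.1, other filters, the replicate block, TCP in the fit and each library left out. Promoters and gene order came from RefSeq (GRCr8), where all 10 symbols were found. Figures were drawn with matplotlib 3.10.9.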

Additional observations from a re-analysis of the deposited data

How the results depend on the processing

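The counts moved most with the replicate number as a block, which pairs ISB-P and PCL libraries: it called 1228 genes higher on ISB-P and 1079 lower, 11 and 10 of the 57 pathway genes, and 1 of the 7 tested hyaluronan and SLRP genes (Has2, log2 fold change 0.38, adjusted p = 0.0248). The block changed no other call among the 7. With at least 5 FPKM required, 61 genes were higher and 24 lower, and upper quartile scaling gave 39 lower. With 1 library left out, 14 to 82 genes were higher and 6 to 31 lower, and 0 to 2 pathway genes were higher and 0 lower. No pathway gene was called lower under upper quartile scaling, quantile normalization, a common total, a pseudocount of 0.1, no filter, at least 5 FPKM or TCP in the fit, each of which gave 0 in place of Hyal2. Scaling to a common total moved the median log2 fold change of all tested genes by -0.105, and Layn by the same amount to -1.05. Of the 8 hyaluronan and SLRP genes above the filter, 4 were over 2-fold lower on each film than on TCP in every setting run. No log2 fold change changed sign on a call. Among the 7 tested genes, Vcan, Lum and Dcn, never called, turned negative under quantile normalization (-0.09, -0.10 and -0.05). They were also negative with a common total and in some fits with 1 library left out. Bgn, never called, turned positive (0.03) without PCL replicate 2. The cause of these shifts was not tested.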
